A study of Marchantia polymorpha with 12 samples.

Results

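Among 18255 genes of the liverwort Marchantia polymorpha measured, 76 were far below the wild type in the Mphy5 mutant both without and with UV-B. Only genes on chromosomes 1 to 8 were considered. A gene was taken when its mean normalized read count in Mphy5, with 1 added, was under 0.25 of that in wild type in each light condition. The wild type mean plus 1 had to reach 20 in each condition, which 12614 genes did. The highest of the 6 Mphy5 values also had to lie below the lowest of the 6 wild type values. A further 2 genes met the thresholds and were left out by the rule. All 76 passed the filter on low values that left 15999 genes for testing. The genes were thus chosen by the measured levels of both lines in all 12 libraries, and their difference between the lines is described here and not tested.

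The study compared gemmalings, the young plants that grow from gemmae, of wild type Tak-1 and of Mphy5, whose genotype is labelled Mphy5-1. Plants aged 7 days received white light of 50 µmol m-2 s-1, either alone or for the last 3 h with 1.5 µmol m-2 s-1 of UV-B added. Line and UV-B gave 4 groups of 3 RNA sequencing libraries, and those without UV-B are also called untreated. The sources used here state neither the kind of mutation nor whether Mphy5-1 is 1 isolate. They also do not say that replicates were separate cultures, and the spread behind each p-value may be technical.

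HY5 is a transcription factor of the bZIP class that binds DNA at ACGT-containing elements. In Arabidopsis it accumulates in light, where its degradation through the COP1 ubiquitin ligase is relieved, and it acts below the UV-B photoreceptor UVR8 on genes of flavonoid synthesis and photoprotection. The response of the 76 genes to UV-B within each line was not itself a criterion, though the bar on overlap across both conditions limited it. Their neighbours and their place in the genome were not used to choose them.

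Genes with a limma p under 0.05, adjusted over the 15999 genes, are said to be called. Recovered read totals were 44787979 to 67532310 per library, and 3 reads in a library corresponded to 2.34 to 3.58 normalized reads. MpBZIP1 (Mp1g16800), taken as MpHY5, had mean levels of 1339 and 1545 normalized reads in wild type and Mphy5 without UV-B, and of 6033 and 16120 with it. As the lesion is not known here, this level does not check the line's label. Of 4 oil body cell markers, 2 were called higher in Mphy5 without UV-B and 4 with it. Their summed level spanned 3683 to 3980 normalized reads in wild type and 4246 to 4646 in untreated Mphy5, and 4002 to 4740 and 5236 to 5710 with UV-B. Of 30 genes for histones and cyclins, listed for dividing cells, 11 were called higher and 2 lower in Mphy5 without UV-B, and 18 higher and 1 lower with it. Their sums were 108900 to 112400 and 118900 to 122600 without UV-B, and 96940 to 110400 and 110700 to 114500 with it. The list took every histone symbol, among them MpH3.3a, MpH3.3b and MpH2A.Z, so its sums do not measure dividing cells alone. No rhizoid marker had a matching symbol. Both gemma cup markers were called higher with UV-B and neither without it, with sums of 2690 to 2814 in wild type and 2920 to 3415 in untreated Mphy5, and 1901 to 2121 and 2513 to 2613 with UV-B. Neither of 2 sexual organ markers was called in either condition, and their sums stayed between 20.3 and 57.0 in all 12 libraries. The air pore marker MpNOP1 was called higher without UV-B only, at 3740 to 3902 in wild type and 3958 to 4351 in Mphy5, and spanned 3271 to 3444 and 3393 to 3430 with it. No listed marker was at 0 in a whole group, and the part of these cell types in the results below was not tested.

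How far the 76 genes fell below wild type varied from just past the threshold to no read at all. The median gene had 5.72% of its wild type level in Mphy5 without UV-B and 6.72% with it, and the highest shares were 24.4% and 24.6%. In 25 genes the share was under 2% in both conditions, in 35 it was over 10% in at least 1 condition, and the other 16 lay between. The share was higher with UV-B in 31 genes, lower in 33 and equal, at 0, in 12. In 66 genes the lowest wild type value was more than 2 times the highest Mphy5 value. In such whole-plant samples, fewer cells of a type and less RNA per cell cannot be told apart. The limma test called all 76 lower in Mphy5 without UV-B, where 13.9% of the genes tested were called lower, and all 76 with UV-B, where 16% were. It called 8.96% of tested genes lower in both conditions, and in 5.99% the 6 Mphy5 values lay below the 6 wild type values. These counts follow from the rule.

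**Figure D1:**
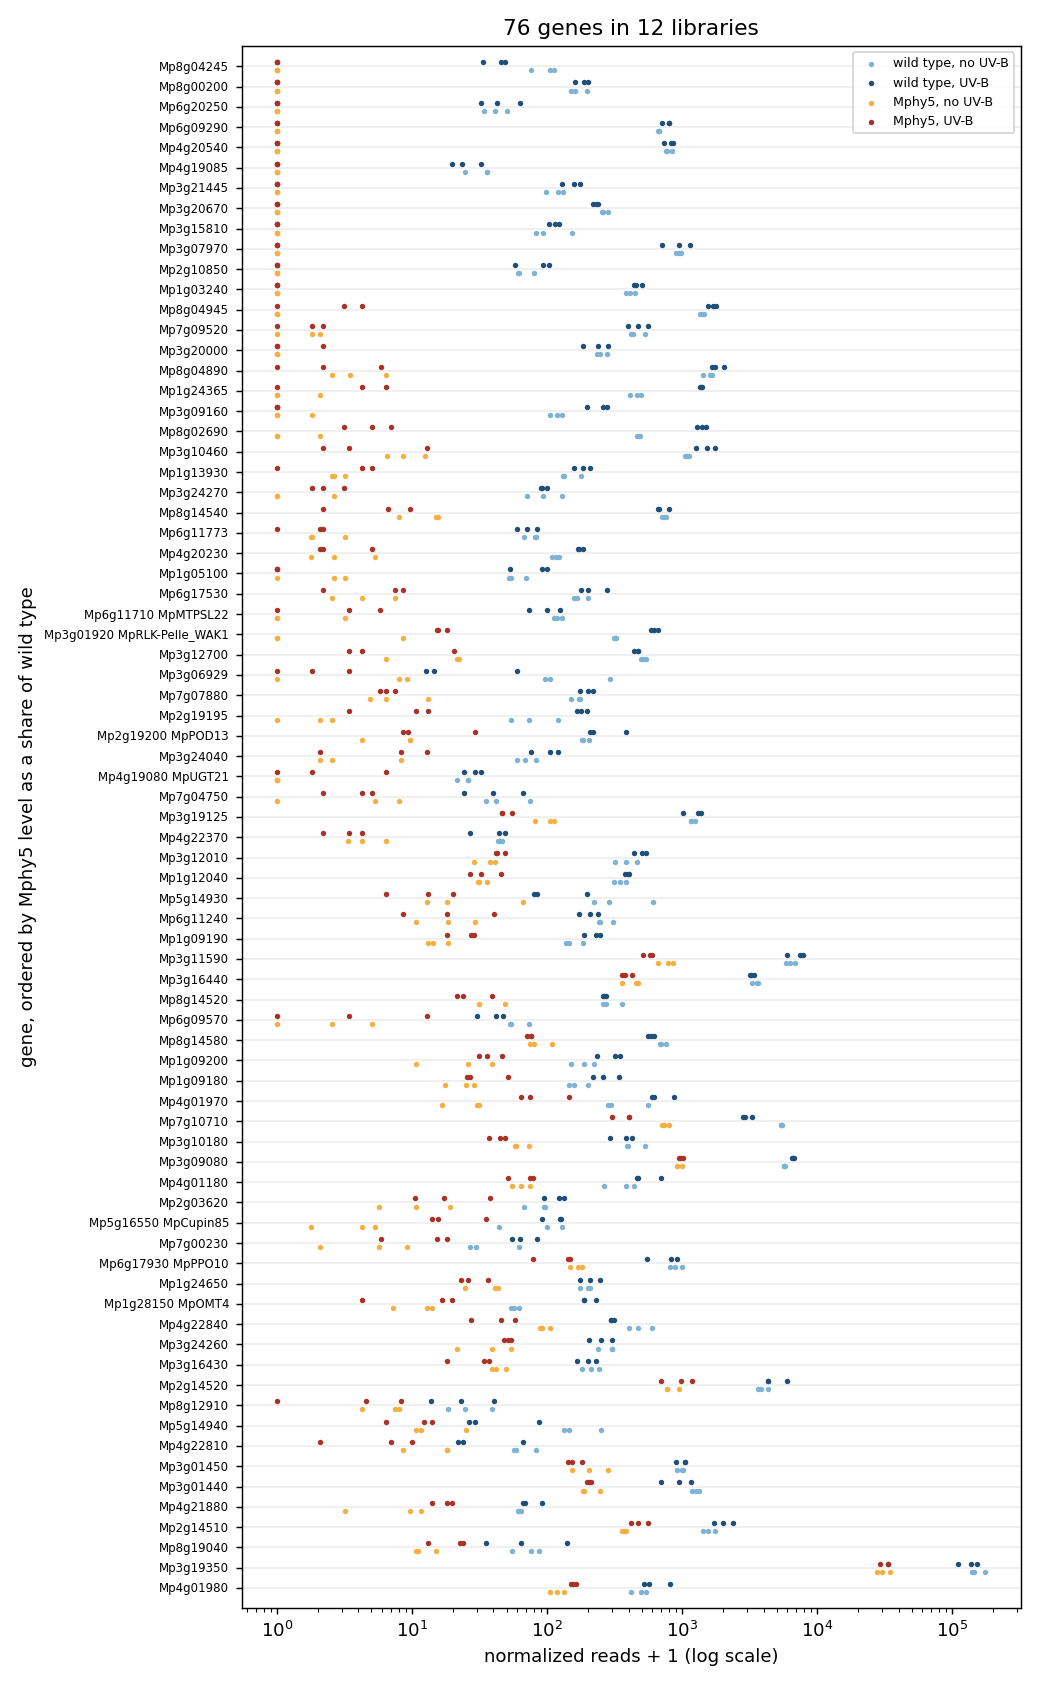
Normalized reads plus 1 (log axis) of the 76 genes in each of the 12 libraries, ordered from the lowest Mphy5 share of the wild type level at the top. Points are libraries, with light and dark blue for wild type and orange and red for Mphy5 without and with UV-B, and the 12 genes at the top have no read in any Mphy5 library.

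The genes at the top of the plot of all 76 by library had no read in Mphy5 at this depth. In 12 genes not a single read was counted in any of the 6 Mphy5 libraries: Mp1g03240, Mp2g10850, Mp3g07970, Mp3g15810, Mp3g20670, Mp3g21445, Mp4g19085, Mp4g20540, Mp6g09290, Mp6g20250, Mp8g00200 and Mp8g04245. These were all the genes over the wild type level that read 0 throughout Mphy5. Mp3g07970 had 939, 978 and 897 normalized reads in the wild type libraries without UV-B and 937, 1147 and 703 with it. Its level in Mphy5 was therefore at least 350-fold lower without UV-B and at least 302-fold lower with it, against a floor of 3 reads per library. Mp4g20540 had 763, 844 and 774 reads in untreated wild type and 821, 725 and 846 with UV-B, which made it at least 296-fold and at least 259-fold lower. Mp6g09290 ran from 665 to 674 in wild type without UV-B and from 708 to 800.3 with it, at least 250.1-fold and 249-fold lower. Its libraries lay close together, and so did those of Mp3g20670, at 251 to 282 without and 216 to 236 with UV-B. Fewest reads among the 12 were those of Mp4g19085, with means of 31.2 and 24.1 in wild type, at least 11.6-fold and 7.82-fold lower. None of the 12 carries a symbol in the table used here, so no role is given for them.

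A second tier left traces. A further 6 genes had at most 3 reads in every Mphy5 library but not 0 in all of them: Mp1g05100, Mp3g09160, Mp3g20000, Mp3g24270, Mp6g11773 and Mp7g09520. Mp7g09520 had 418 to 528 normalized reads in untreated wild type and 394 to 552 with UV-B, against 2 reads in all 3 Mphy5 libraries together in each condition. Mp3g20000 had 1 read in the 6 Mphy5 libraries together, against wild type means of 252 and 234. Among those nearly silent in Mphy5, the most wild type reads were counted for the neighbours Mp8g04890 and Mp8g04945. Mp8g04890 had 1609, 1659 and 1428 normalized reads in untreated wild type and 1744, 2033 and 1652 with UV-B. In Mphy5 it had 5.42, 1.56 and 2.44 without and 0, 4.86 and 1.19 with UV-B, which is 0.201% and 0.111% of wild type. No Mphy5 value came near a wild type one. Mp8g04945 had means of 1399 ± 55.9 and 1666 ± 115 normalized reads in wild type (SD, n = 3). It had 0 reads in Mphy5 without UV-B, at least 522-fold lower, and 6 reads in the 3 libraries with UV-B. Mp3g10460 had 1040.0 to 1114 in wild type and 5.46 to 11.4 in untreated Mphy5, and 1272 to 1737 and 1.19 to 11.8 with UV-B.

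The members with the most reads in wild type ranged from nearly silent to well read in Mphy5. By normalized reads, which are not corrected for gene length, the 10 members with the most reads in wild type were Mp3g19350, Mp3g11590, Mp3g09080, Mp2g14520, Mp7g10710, Mp3g16440, Mp2g14510, Mp8g04890, Mp8g04945 and Mp3g10460. Mp3g19350 had 144401, 174650.3 and 139919 normalized reads in untreated wild type and 137658, 152085 and 109993 with UV-B. In Mphy5 it had 34340.1, 30084 and 27794, and 33532, 29206 and 33202, or 20.1% and 24.0% of wild type. Its Mphy5 libraries were thus alike in both conditions and far from 0. Mp3g09080 was 5679 to 5729 in wild type and 909 to 1002 in untreated Mphy5, and 6511 to 6676 and 951 to 1006 with UV-B. Mp3g11590 had means of 6302 and 768 without UV-B and 7052 and 563 with it. Mp3g16440 had means of 3493 and 429, and 3264 and 386. Such levels were the exception: 47 of the 76 genes lay in the lowest 25% of the genes over the wild type level, under 424 normalized reads, and 6 in the highest 25%, over 3369.

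Of the 76 genes, 7 had a symbol (9.21%), against 19.1% of the 12614 genes over the wild type level. They are described here by role, starting at the cell surface. MpRLK-Pelle_WAK1 (Mp3g01920) belongs to the wall-associated kinases, receptor kinases that bind pectin in Arabidopsis. It had 311, 316 and 321 normalized reads in untreated wild type and 658, 619 and 588 with UV-B. In Mphy5 it had 7.59, 0 and 0 without UV-B and 17.2, 14.6 and 14.3 with it. MpPOD13 (Mp2g19200) is a class III peroxidase, an enzyme type that oxidises phenolics with hydrogen peroxide, mostly in cell walls. It had 181 to 202 in wild type and 3.26 to 8.68 in untreated Mphy5, and 207 to 382 and 7.51 to 28.3 with UV-B. MpCupin85 (Mp5g16550) carries the barrel fold shared by germins and seed storage proteins. Its means were 90.0 and 2.79 without UV-B and 113 and 20.7 with it, or 3.10% and 18.3% of wild type.

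The other 4 named genes belong to families that make or modify small molecules. MpOMT4 (Mp1g28150) is named as an O-methyltransferase, an enzyme class that methylates phenolics among other substrates. It had 55.9, 53.1 and 60.6 normalized reads in untreated wild type and 185, 230.2 and 187 with UV-B, against 11.9, 6.24 and 13.03 and then 3.22, 18.6 and 15.5 in Mphy5. MpPPO10 (Mp6g17930) is named as a polyphenol oxidase, which turns phenols into quinones. It had 807, 997 and 886 in wild type without UV-B and 906, 818 and 549 with it. In Mphy5 it had 167, 146 and 179, and 147, 142 and 77.6, or 18.3% and 16.2% of wild type. MpMTPSL22 (Mp6g11710) is a microbial-type terpene synthase-like gene. Its wild type libraries spanned 72.4 to 127 in both conditions together, and its Mphy5 libraries 0 to 4.78. MpUGT21 (Mp4g19080) is named as a UDP-glycosyltransferase, which attaches sugars to small molecules. It had few reads, at 20.5 to 25.02 in wild type without UV-B and 23.3 to 31.5 with it, and at 0 in Mphy5 without UV-B. With UV-B its Mphy5 libraries had 5.36, 0.81 and 0.

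The families of these 7 genes did not move as blocks. Among 146 MpPOD genes tested, 39 were called higher and 19 lower in Mphy5 without UV-B, and 48 higher and 22 lower with it. Among 43 MpPPO genes, 6 were higher and 9 lower without UV-B, and 9 higher and 10 lower with it. The 59 MpCupin genes gave 7 higher and 11 lower, then 5 and 14. The 35 MpUGT genes gave 5 and 8, then 8 and 7, and the 16 MpOMT genes 4 and 3, then 3 and 3. Of 11 MpMTPSL genes, 0 were called higher and 4 lower without UV-B, and 2 and 3 with it. The 4 MpRLK-Pelle_WAK genes gave 1 and 2, then 1 and 1. Median log2 differences of these families ran from -0.79, for the 4 MpRLK-Pelle_WAK genes without UV-B, to 0.31, for MpPOD with UV-B, and that of all tested genes was 0.00 without and -0.01 with UV-B. Each family had exactly 1 gene among the 76.

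Pathways for which HY5 is known were searched by symbol, so the 69 members without a symbol could not enter these lists, and the few that could do not tell how far the 76 overlap such pathways. None of the 17 tested genes of UV-B and light signalling was among them. Of these, 3 were called higher and 4 lower in Mphy5 without UV-B, and 9 higher and 4 lower with it. The list of 101 phenylpropanoid and flavonoid genes, for pathways that supply UV-absorbing pigments, was taken by symbol and included MpUGT genes whatever their substrate. Of the 101, 1 was among the 76, MpUGT21, where 0.603% of all genes over the wild type level were. The name of MpUGT21 does not give its substrate. In that list 26 were called higher and 18 lower without UV-B, and 30 and 15 with it, with medians of 0.03 and 0.06 on the log2 scale. Over all tested genes the counts were 1764 higher and 2222 lower without UV-B, and 2209 and 2557 with it.

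The threshold of 0.25 cut through a continuous range. Just inside it were Mp8g12910, Mp8g19040 and Mp4g01980, whose higher ratio over the conditions was 24.1%, 24.7% and 24.7%. Just outside were Mp2g18880, Mp2g25335 and Mp5g24580, at 25.5%, 25.99% and 26.03%. In level, Mp5g14940 came nearest to overlap, with a lowest wild type value of 25.6 normalized reads and a highest Mphy5 value of 24.2, though in another light condition. Mp8g12910 had 17.4, 38.0 and 23.6 in untreated wild type and 22.1, 12.9 and 39.7 with UV-B, against 6.51, 7.02 and 3.26 and then 0, 7.29 and 3.58 in Mphy5. With the lines exchanged, the same rule found 100 genes. Among those, 5 were at 0 in all 6 wild type libraries and 11 had at most 3 reads in each, against 12 and 18 of the 76 in Mphy5.

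Chromosome 3 held 23 of the 76 genes, or 30.3%, although it holds 13.5% of the genes over the wild type level. This made 1.35 members for every 100 such genes, against 0.197 on chromosome 5, which had 3 members (3.95%) and 12.1% of the genes. The other chromosomes held 10 on chromosome 1, 6 on 2, 11 on 4, 8 on 6, 5 on 7 and 10 on 8. Of the 100 genes found with the lines exchanged, 17 lay on chromosome 3 and 23 on chromosome 5. On chromosome 3 the members lay along its length, with 12 before and 11 after the middle of its gene order. They included 4 of the 12 genes without a read in Mphy5. These shares are a description, and counting each run of neighbouring members once left 60 places, 19 of them (31.7%) on chromosome 3.

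**Figure D2:**
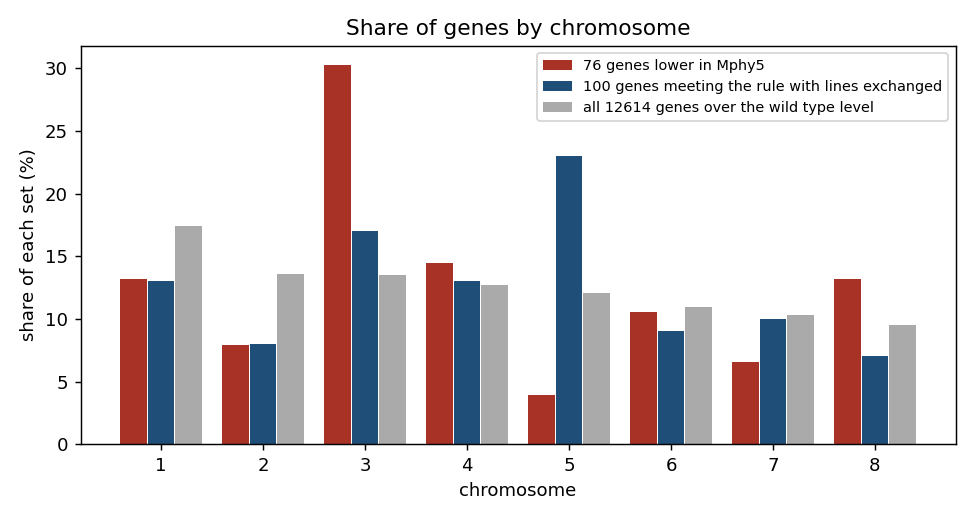
Share (%) of genes on each chromosome for the 76 genes (red), the 100 genes that meet the rule with the lines exchanged (blue) and the 12614 genes over the wild type level (grey). The red bar stands above the grey one by most on chromosome 3, at 30.3% against 13.5%, and the blue bar does so on chromosome 5, at 23% against 12.1%.

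Members also lay beside each other. With runs defined as members within 10 places of another in the gene order, 30 of the 76 formed 14 runs and 46 stood alone. In 9 runs all members were direct neighbours. One of these was a triplet on chromosome 1, Mp1g09180, Mp1g09190 and Mp1g09200, with shares of 9.24% to 13.5% of wild type in Mphy5. The pairs were Mp2g14510 with Mp2g14520, Mp2g19195 with MpPOD13, Mp3g01440 with Mp3g01450, Mp3g16430 with Mp3g16440, Mp3g24260 with Mp3g24270, Mp4g01970 with Mp4g01980, MpUGT21 with Mp4g19085, and Mp5g14930 with Mp5g14940. Mp2g14510 and Mp2g14520 were alike in share, at 23.7% and 21.1% without UV-B and 23.6% and 19.6% with it. Mp3g24260 and Mp3g24270 were not, at 13.4% and 0.564% without UV-B and 19.9% and 1.49% with it. Neighbours that overlap, or that are near-identical copies, can share reads, and the sources used here do not say how the counting treated such reads or the strand.

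The other 5 runs had genes between their members, 17 of them tested, of which 8 were called lower in Mphy5 in both conditions. On chromosome 8, Mp8g14520, Mp8g14540 and Mp8g14580 had 4 such genes between them. There Mp8g14526, Mp8g14550, Mp8g14560 and Mp8g14575 differed by -0.90, -0.63, -1.61 and -1.35 on the log2 scale without UV-B, against -3.00, -5.89 and -3.05 for the 3 members. The gene before this run, Mp8g14515, went the other way, by 1.56 without and 1.39 with UV-B (limma, adjusted p = 3e-09 and 1.2e-08). On chromosome 6, Mp6g11730, Mp6g11740 and Mp6g11750 lay between MpMTPSL22 and Mp6g11773 and differed by -1.06, -0.96 and -1.25 without UV-B. Next to the pair Mp8g04890 and Mp8g04945, Mp8g04950 was also at 0 in Mphy5, where wild type had means of 17.7 and 22.4 normalized reads, too few for the rule without UV-B. The last of the 14 runs, Mp4g22810 with Mp4g22840, had 2 tested genes between its members and neither was called lower in both conditions.

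**Figure D3:**
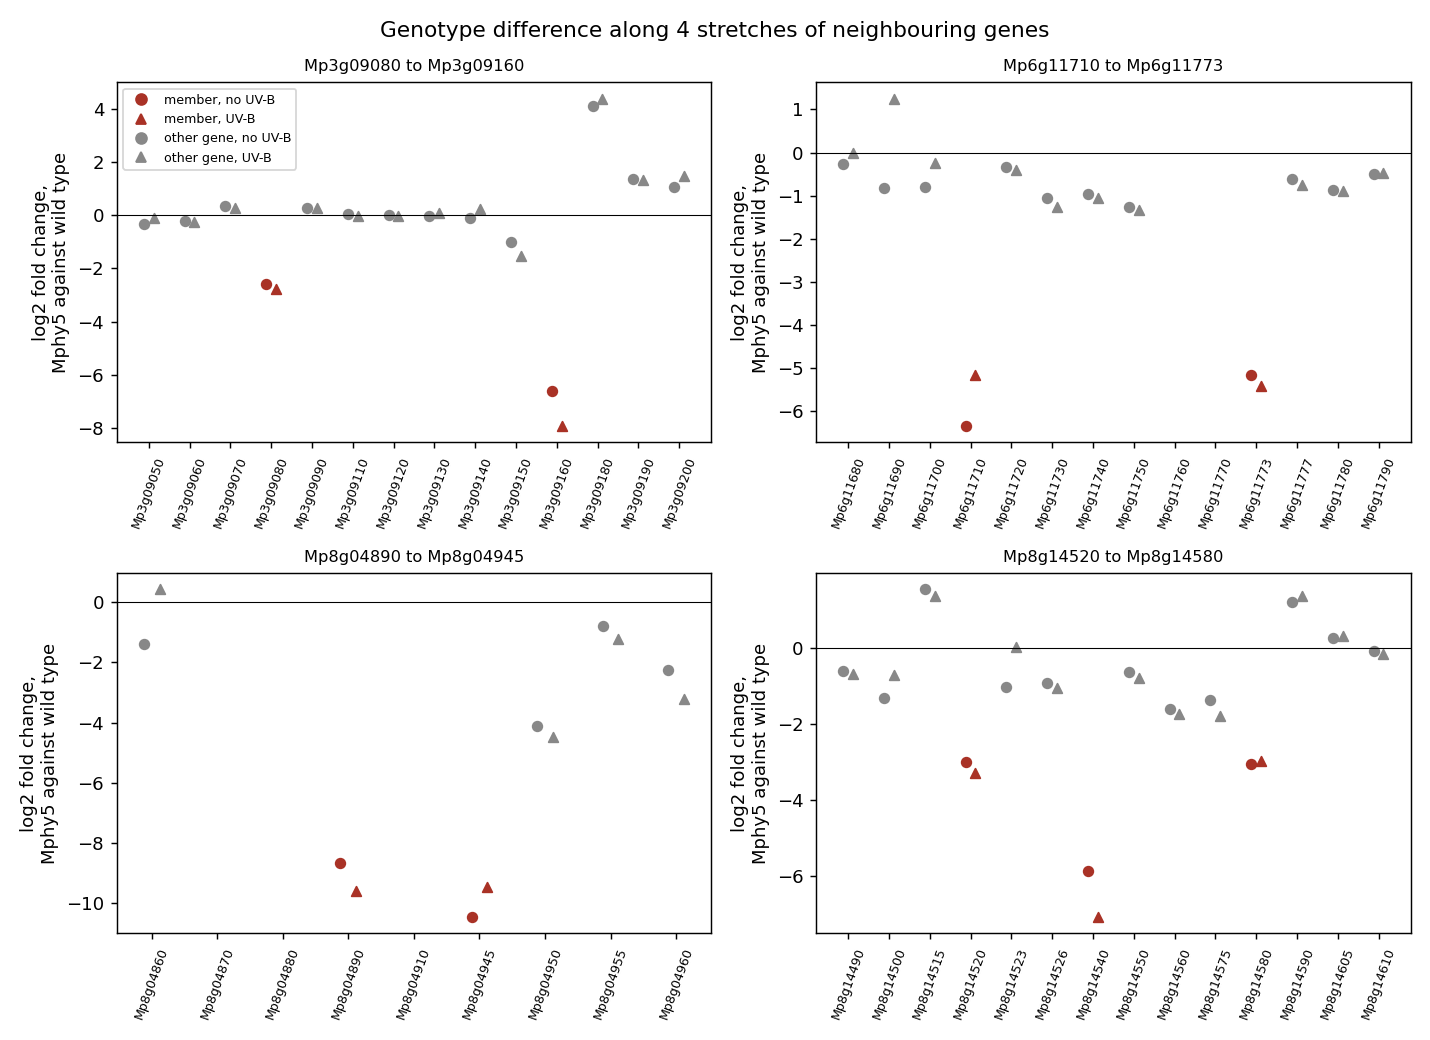
Log2 difference between Mphy5 and wild type (from log2 of normalized reads plus 1) for consecutive genes along 4 stretches, with members in red, other genes in grey, circles without and triangles with UV-B. Positions without points are genes too low to be tested, and a gene next to the member Mp3g09160, Mp3g09180, stands at 4.10 and 4.38 while the member stands at -6.59 and -7.92.

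One stretch on chromosome 3 went in both directions within a few genes, as the plot along 4 stretches shows. Mp3g09160, with 105, 117 and 128 normalized reads in untreated wild type and 196, 277 and 259 with UV-B, had 1 read in the 6 Mphy5 libraries together. Before it lay MpNBS-LRR5, of the class of intracellular immune receptors, at -1.01 without and -1.53 with UV-B on the log2 scale (limma, adjusted p = 3.6e-05 and 1.5e-07). After it lay Mp3g09180, which was at 0 in all 6 wild type libraries and had means of 16.3 and 20.1 normalized reads in Mphy5. The other member of this run, Mp3g09080, had 5 tested genes between it and MpNBS-LRR5, none of which was called lower in both conditions. This stretch held a member still well read in Mphy5, an almost silent one and a gene read in Mphy5 alone.

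Genes around the 76 are described next, with no test of their shares. Of 114 tested non-members directly beside a member, 31 (27.2%) were called lower in Mphy5 in both conditions and 16 (14.04%) higher in both. At 2 to 3 places the shares were 19.8% lower and 6.76% higher of 222 genes, and at 4 to 10 places 10.1% and 8.68% of 726. Over all tested genes they were 8.96% and 6.59%. The median log2 difference of the direct neighbours was nevertheless small, at -0.06 without and -0.14 with UV-B. In 46 of the 76, at least 1 of the nearest tested genes was called in neither condition. Both were called in neither in 5 of the 75 members with a tested gene on either side. Of all tested genes, 61.4% were called in neither condition. The nearest tested genes include other members, which were all called lower. Genes of the named members' families were among the nearest tested genes, though not always beside the member of their own family. MpPOD14 (Mp2g19210), beside MpPOD13, had few reads and was called in neither condition. Its means were 0 and 5.44 normalized reads in wild type and 0 and 2.15 in Mphy5, without and with UV-B. MpMTPSL23 (Mp4g19090), of the family of MpMTPSL22 on chromosome 6, lay beside the pair MpUGT21 and Mp4g19085. It had means of 12.4 and 16.5 normalized reads in wild type and 2.78 and 1.35 in Mphy5. MpRLK-Pelle_WAK2 (Mp3g01940), next after MpRLK-Pelle_WAK1 among tested genes, had 20.7 and 15.3 in wild type and 6.94 and 8.86 in Mphy5, with a call without UV-B only (limma, adjusted p = 0.045 and 0.41).

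Some of the 76 have identifiers of a less common kind. In the RefSeq gene table used for names, of assembly MpTak2_v7.1, 18 of the 12614 genes over the wild type level had no entry, and 8 of those 18 (44.4%) were among the 76, which make up 0.603% of the 12614. They were Mp3g15810, Mp3g24040, Mp4g20230, Mp4g20540, Mp7g07880, Mp8g04245, Mp8g04890 and Mp8g14540, of which 3 had no read in Mphy5. Of the other 10, 0 were called lower in both conditions by limma and 1, Mp5g24220, was called higher in both. Among the 100 genes found with the lines exchanged, 3 had no entry. Locus numbers that do not end in 0 belonged to 9 of the 76 (11.8%), to 1.57% of genes over the wild type level and to 11 of the 100. The sources used here do not name the assembly on which the counts were made.

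The response to UV-B was not itself a criterion for the 76, and it was mixed. The bar on overlap between the lines spanned both conditions, so it limited how far a gene could change within a line. Allowing overlap gave 79 members. In wild type, limma called 5 of them higher and 5 lower with UV-B, where 14.6% of all tested genes were called higher and 14.6% lower. Log2 changes are those of normalized reads plus 1. Without adjustment 11 and 7 passed 0.05. All 3 values with UV-B lay above all 3 without in 19 genes and below them in 12, where 20.2% and 20% of tested genes did so. The count of genes called higher depended on the fit. The fit of all 12 libraries shares 1 spread over the 4 groups, so scatter among low Mphy5 values enters its wild type test. Its wild type counts are thus not free of the choice of genes. It was 13 with the wild type libraries alone (background 15%), 14 with edgeR on recovered reads (15.4%) and 15 with DESeq2 (15.1%), and those called lower were then 6 (14.8%), 6 (13.7%) and 7 (15.4%). The median log2 change of the 76 was 0.11, against -0.01 over all tested genes.

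The largest rises called in wild type were those of Mp8g02690, Mp1g24365 and MpOMT4, to 2.94, 3.04 and 3.55 times the level without UV-B. Mp8g02690 went from 462, 485 and 478 normalized reads to 1394, 1507 and 1285, a log2 change of 1.55 ± 0.33 (SE; limma, adjusted p = 0.0012). Mp1g24365 went from 406, 491 and 463 to 1374, 1401 and 1357, a change of 1.60 ± 0.51 (adjusted p = 0.024). In both genes every library with UV-B lay far above every one without. Mp1g24365 lost its call in this fit without wild type replicate 1 or 2 with UV-B (adjusted p = 0.056 and 0.058). It also lost it without replicate 1 or 3 without UV-B (0.069 and 0.057). The same held with 0.1 added to the values in place of 1 (limma, adjusted p = 0.48) and without the trend and robust options (0.077). For this gene edgeR gave 7.7e-11 and the wild type libraries alone 4.3e-10. MpOMT4, whose values are given above, rose by 1.80 ± 0.45 (adjusted p = 0.0042). Smaller rises were called in Mp3g09080, by 0.21 ± 0.05 (adjusted p = 0.0034), and Mp2g14510, by 0.36 ± 0.12 (adjusted p = 0.026). Mp2g14510 went from 1745, 1433 and 1552 to 2387, 1991 and 1712, so its groups overlapped. It was no longer called without wild type replicate 1 or 2 with UV-B (adjusted p = 0.16 and 0.061) or replicate 2 or 3 without it (0.11 and 0.074). Nor was it called with the wild type libraries alone (limma, adjusted p = 0.059) or without the trend and robust options (0.091).

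Of the wild type falls, that of Mp7g10710 was the steadiest, from 5342, 5478 and 5396 normalized reads to 2905, 3257 and 2805, a log2 change of -0.86 ± 0.09 (SE; limma, adjusted p = 5.1e-07). Mp5g14940 fell by 2.05 ± 0.47 (adjusted p = 0.0022), from 131, 249 and 145 to 25.6, 86.5 and 28.2. Replicate 2 stood above the others in both conditions. Mp3g06929 did likewise, at 105, 288 and 95.5 without and 11.6, 58.4 and 13.6 with UV-B, and fell by 2.69 ± 0.84 (adjusted p = 0.026). Its call was lost without replicate 2 without UV-B (adjusted p = 0.091) and without replicate 1 or 3 with it (0.099 and 0.09). The call was also lost with 0.1 added to the values in place of 1 (limma, adjusted p = 0.26) and without the trend and robust options (0.07). The replicate 2 pattern also held for Mp5g14930, beside Mp5g14940, at 220.1, 604 and 287 without UV-B and 83.7, 197 and 78.4 with it, which was not called. Mp4g22840 fell by 0.68 ± 0.22 (adjusted p = 0.024) and Mp3g01440 by 0.46 ± 0.15 (adjusted p = 0.027). The call of Mp4g22840 was lost without wild type replicate 1, 2 or 3 with UV-B (adjusted p = 0.052, 0.062 and 0.055) or replicate 1 or 3 without it (0.13 and 0.054). That of Mp3g01440 was lost without replicate 1 or 3 with UV-B (adjusted p = 0.05 and 0.16) or replicate 1 or 2 without it (0.095 and 0.071). Mp3g01440 was also not called with the wild type libraries alone (limma, adjusted p = 0.12) or without the trend and robust options (0.091).

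A further 8 genes were called in wild type both by edgeR and in the fit of the wild type libraries alone, but not in the fit of all 12 libraries. Of these, 7 rose. MpRLK-Pelle_WAK1 rose from a mean of 316 ± 5.21 to 622 ± 34.9 normalized reads (SD, n = 3), a log2 change of 0.97 with an adjusted p of 1.7e-06 in wild type alone and 0.32 in the fit of 12. Mp3g09160 rose by 1.05, with 2.6e-04 and 0.064, and Mp2g19195 by 1.21, with 0.0016 and 0.077. Mp1g09180 and Mp1g09200 rose by 0.69 and 0.68, and the gene between them, Mp1g09190, by 0.51 in the wild type fit alone (adjusted p = 0.037; edgeR 0.065). Mp3g10460 and Mp8g04945 rose by 0.47 and 0.25. The gene that fell was Mp8g04245, by 1.19, with 0.0029 and 0.059, and this is a gene without a read in Mphy5.

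**Figure D4:**
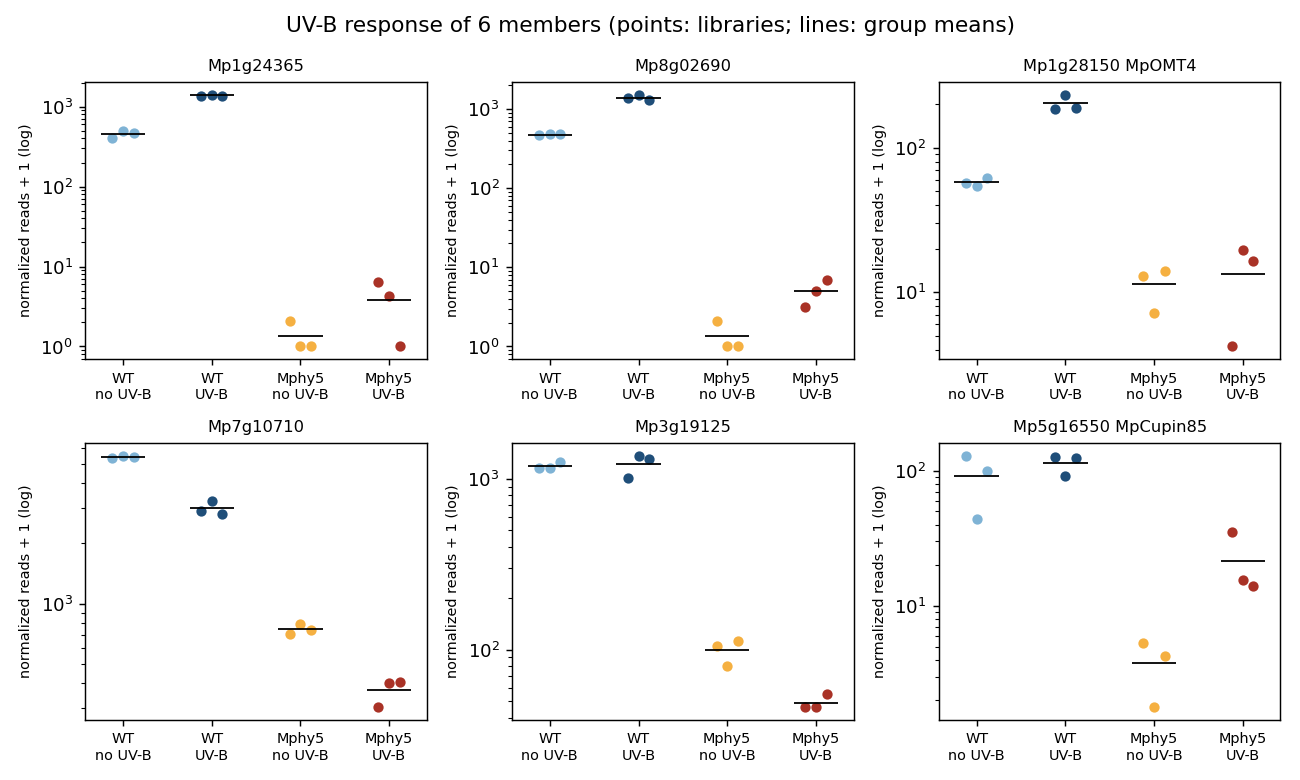
Normalized reads plus 1 (log axes) of 6 members in the 4 groups, where points are the 3 libraries of a group and lines are group means. Mp1g24365, Mp8g02690 and MpOMT4 rose with UV-B in wild type, Mp7g10710 fell in both lines, Mp3g19125 fell in Mphy5, and MpCupin85 rose in Mphy5.

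In Mphy5, limma called 8 of the 76 higher and 6 lower with UV-B, where 15.9% of tested genes were called in each direction. The 12 members without a read in Mphy5 could not be called there, nor could their groups separate, and 6 more had at most 3 reads in each library, so counts of the 76 in Mphy5 are limited from the outset and are not read against these shares. All 3 values with UV-B lay above all 3 without in 9 genes (background 21%) and below them in 6 (21.9%). The fit of the Mphy5 libraries alone, which 58 of the 76 entered, called 5 higher (16.3%) and 4 lower (16.5%). Many of these genes had few reads, so the values matter more than the folds. MpCupin85 went from 4.34, 0.78 and 3.26 normalized reads to 34.3, 14.6 and 13.1, a log2 change of 2.53 ± 0.48 (SE; limma, adjusted p = 2.6e-04). MpRLK-Pelle_WAK1 rose by 2.99 ± 0.65 (adjusted p = 0.0034), with reads in 1 of 3 libraries without UV-B and in all 3 with it. Mp4g01970 went from 30.4, 15.6 and 29.3 to 145, 73.7 and 63.3, a change of 1.82 ± 0.35 (adjusted p = 0.0012). Mp2g19195 went from 3 reads in the group to 26, a change of 2.16 ± 0.50 (adjusted p = 0.0018). Mp8g02690 went from 1 read to 12, a change of 1.91 ± 0.33 (adjusted p = 1.1e-04), and was not called in the fit of the Mphy5 libraries alone (adjusted p = 0.1). The other rises were called in Mp4g21880, Mp8g04945 and Mp2g14510. With the Mphy5 libraries alone, Mp4g21880 was not called (limma, adjusted p = 0.09) and Mp8g04945 did not enter the fit. None of the genes that rose reached the lowest wild type value, which the rule fixed.

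Most genes that fell in Mphy5 had more counted reads there than most that rose. Mp7g10710 went from 704, 794 and 737 normalized reads to 302, 401 and 403, a log2 change of -1.02 ± 0.09 (SE; limma, adjusted p = 3.3e-08). Mp3g19125 went from 104, 79.6 and 112 to 45.1, 45.3 and 53.8, a change of -1.01 ± 0.15 (adjusted p = 1.3e-05). Mp4g22840 went from 104, 90.5 and 87.9 to 56.9, 44.5 and 26.3, a change of -1.19 ± 0.22 (adjusted p = 2.1e-04). In these 3 genes no library with UV-B reached one without. Mp3g11590 fell by 0.44 ± 0.11 (adjusted p = 0.0089). Mp8g14540 fell by 1.25 ± 0.42 (adjusted p = 0.032) and Mp3g10180 by 0.54 ± 0.19 (adjusted p = 0.038). With the Mphy5 libraries alone, neither Mp8g14540 nor Mp3g10180 was called (limma, adjusted p = 0.15 and 0.14). The call of Mp8g14540 was lost without Mphy5 replicate 3 with UV-B (adjusted p = 0.096) or replicate 1 or 3 without it (0.13 and 0.13). That of Mp3g10180 was lost without Mphy5 replicate 1 or 3 with UV-B (adjusted p = 0.055 and 0.15), replicate 2 without it (0.16) or wild type replicate 1 with UV-B (0.051), and edgeR gave 0.06.

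Between the lines, 2 genes were called higher with UV-B in both, Mp2g14510 and Mp8g02690, and 2 lower in both, Mp7g10710 and Mp4g22840. In Mp7g10710 the level with UV-B was 0.553 of that without in wild type and 0.495 in Mphy5, while its Mphy5 level was 13.8% of wild type without and 12.3% with UV-B. A further 6 genes were called in wild type alone and 10 in Mphy5 alone, and 0 in opposite directions. Being called in 1 line does not show a difference between lines, which was tested directly. In limma 1 of the 76 had a called difference of responses, where 4.46% of tested genes had one. That gene was Mp3g19125, which had 1162, 1160.1 and 1250.3 normalized reads in untreated wild type and 1015, 1366 and 1302 with UV-B. Its response in Mphy5 was lower than in wild type by 1.04 ± 0.21 on the log2 scale (adjusted p = 0.0043). Its share of the wild type level went from 8.27% without UV-B to 3.91% with it. Without adjustment 9 of the 76 passed 0.05.

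The number of differing responses also varied with the tool. The share of false calls among differences of responses was not tested for any tool. edgeR called Mp3g19125 and MpCupin85, whose response was higher in Mphy5 by 2.56 (adjusted p = 0.045; limma 0.095), where 5.01% of tested genes were called. DESeq2 called 5 of the 76, with a background of 6.23%. It added MpOMT4, at -1.52 (adjusted p = 0.047; limma 0.14), MpRLK-Pelle_WAK1, at 1.93 (0.026; limma 0.31), and Mp3g11590, at -0.61 (0.00085; limma 0.061). MpOMT4 thus rose in wild type while its mean in Mphy5 was 10.4 ± 3.64 normalized reads without and 12.5 ± 8.15 with UV-B (SD, n = 3). The difference of responses equals the difference between the lines with UV-B minus that without, and as the rule set a limit to both, it is not free of the choice of genes.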

How the data were processed

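RNA was measured in 12 libraries in 4 groups of 3, read as single ends of 100 bases, per the labels' protocols. Per the submitters' processing notes, the aligner was STAR 2.7.4. The sources used here name no genome build, annotation or counting program, and no rule for strand or for reads matching several genes. The authors deposited 1 table of normalized signal, whose values behave as read counts scaled by 1 factor for each library. Of the low nonzero values, 100% in every library were whole multiples of 1 step within 0.02 reads, so whole reads were recovered as 44787979 to 67532310 per library. All sample columns were mapped, and no libraries were duplicates. Floors of 3 reads per library cover counting error only.

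Values plus 1 were taken to log2 and tested with limma 3.58.1 in R 4.3.3, fitting 4 group means to 12 libraries with the trend and robust options. Adjustment by Benjamini-Hochberg covered the 15999 genes that reached a value of 1 in 3 or more libraries. The design named edgeR for counts, and because the deposited values are normalized, limma was kept as the main test. As alternatives, recovered reads went into DESeq2 1.42.0 and the quasi-likelihood test of edgeR 4.0.16. For UV-B in wild type edgeR called 4653 genes, DESeq2 4879 and limma 4674. On simulated data with 15999 genes for that contrast, limma recovered 86.6%, 92.5% and 100% of changes of 1.5, 2 and 4 fold. Of its calls 5.1% were false, against 4.7% with edgeR and 12.6% with DESeq2. Whether these rates hold for genes far lower in Mphy5 than in wild type, such as the members, was not tested.

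Names were read from RefSeq's table for assembly MpTak2_v7.1, in which 68 of the 76 genes had an entry. Gene order was that of the locus numbers on each chromosome, and no coordinates were used. Named are members with a symbol, the 10 with the most reads in wild type, the largest called UV-B changes, members in runs, and genes at the threshold. Others that are named, such as the genes without a read in Mphy5 and the neighbours, were chosen after their values were seen. The members and lists were chosen with earlier results of these data known. That MpBZIP1 is MpHY5 rests on published nomenclature and was not tested. No sequences were used.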

Additional observations from a re-analysis of the deposited data

Results flagged for a closer look

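The response of Mp3g19125 to UV-B differed between the lines. Its log2 change in Mphy5 was lower than that in wild type by 1.04 (a difference of -1.04 ± 0.21, SE; limma, adjusted p = 0.0043). All 3 Mphy5 libraries with UV-B lay below the 3 without, while the wild type groups overlapped. It was called in the same direction by edgeR (-1.09, adjusted p = 0.001) and DESeq2 (-1.08, adjusted p = 4.6e-05). With each of the 12 libraries left out in turn, its change in Mphy5 stayed between -0.91 and -1.15 and was called each time. That range is for the change in Mphy5 and not for the difference of responses.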

How the results depend on the processing

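The number of members was 76 and stayed between 63 and 113 under other thresholds: 82 with nothing added to the means, 74 with 5 added (69 of them shared), 63 and 113 with ratios of 0.2 and 0.33, 88 and 64 with wild type levels of 10 and 50, and 79 with overlap allowed. Leaving out each library in turn gave 72 to 81. The 5 members called higher with UV-B in wild type became 15 with DESeq2, 14 with edgeR, 13 with only the groups compared, and 3 and 8 with pseudocounts of 0.1 and 5. Leaving out each library gave 3 to 8 there (3 without wild type replicate 1 or 2 with UV-B, 8 without Mphy5 replicate 3 with UV-B). The 5 called lower became 2 to 6 (2 without wild type replicate 1 or 3 with UV-B, 3 without replicate 1 or 2 without it). In Mphy5 the 8 called higher became 5 with only the groups compared and 7 to 12 with each library left out, and the 6 called lower 5 to 9. The 1 called difference of responses became 5 with DESeq2, 2 with edgeR, 2 without trend and robust options, 2 without the filter on low values, and 1 to 2 with each library left out (2 without Mphy5 replicate 1 or 3 with UV-B, Mphy5 replicate 1 or 2 without it, wild type replicate 3 with it or replicate 2 without it). TMM rescaling kept 76 members and moved the median of all genes by at most 0.02. Of 440 repeats of the named UV-B changes, 395 kept direction and side of the threshold, 45 lost the call and 0 reversed; the cause was not tested. Genes near 0 in Mphy5 are limited by depth.

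Same-numbered replicates showed little shared deviation over all tested genes, with correlations between -0.017 and 0.054. Such correlations cannot show whether samples were paired, and in some members replicate 2 stood high in both wild type conditions. It also stood high in untreated Mphy5 for Mp5g14930 (11.9, 65.55 and 17.1 normalized reads) and Mp5g14940 (9.76, 24.2 and 10.6). In Mphy5 with UV-B it was not the highest for these genes. Whether replicates shared a batch was not tested. With a replicate block, members called higher and lower with UV-B were 7 and 6 in wild type and 9 and 8 in Mphy5, 3 had a called difference of responses, and all 76 were called lower in Mphy5 in both conditions.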
